A study of Mus musculus with 7 samples.

Results

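The genes described here make the proteins that store, mask and later release maternal mRNA in the mouse oocyte. They are the 4 CPEB genes (Cpeb1, Cpeb2, Cpeb3 and Cpeb4), the storage genes Ybx2, Zar1 and Zar1l, the translation regulator Dazl, and the repressor genes Ddx6 and Lsm14b. They were chosen by name, and all 10 had a row among the 26019 gene rows of the table. RNA was measured in 7 libraries made with Smart-Seq2, a method that copies polyadenylated RNA from a few cells into cDNA and amplifies it. Each library pooled 5 oocytes that had been isolated by enzyme digestion of secondary follicles, the stage at which granulosa cells form several layers around the growing oocyte. Wild type (WT) had 4 libraries and the knockout (KO) 3, both on the C57BL/6J background.

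The knockout is Mfn2-/- in the series title and design text, whereas Mfn1-/- stands in the genotype label and in the treatment protocol. Mfn2 and Mfn1 encode mitofusins, which fuse mitochondria. The protocol gives an age of 8 weeks and the age label reads P1, in both groups. The sources used here do not give the deleted exons, any promoter that drives the deletion, or the mice behind each library; the design text speaks of 3 mice per group, while WT has 4 libraries. The spread that p-values rest on is therefore that between libraries, which may be technical. In the data, Mfn2 was lower in KO, at 4.55 to 7.66 normalised counts against 15.0 to 35.3 in WT (log2 fold change -1.94 ± 0.40 SE, adjusted p = 0.00571 by limma). Mfn1 had 308 to 347 in KO and 258 to 340.2 in WT (adjusted p = 0.499). Libraries held 6676076 to 8343915 reads in genes. Of the granulosa cell genes, Inha had 395 and 338 normalised counts in KO 2 and KO 3, against 54.5 in KO 1 and 11.9 to 66.7 in WT. Amh had 8.18 and 7.66 in KO 2 and KO 3, and at most 0.953 in the other libraries. Foxl2 had 3.64 and 3.28 there and at most 1.08 elsewhere. Fshr had the opposite order, with 49.97 in KO 1, 9.09 and 6.56 in KO 2 and KO 3, and 1.07 to 39.3 in WT. Of 20 granulosa genes 18 were tested, with a median log2 fold change of 1.28. Limma called 1 higher and 2 lower (16.7%, against 6.71% of all genes). It had 12 of the 18 at an unadjusted p under 0.05, against 21.8% of all genes. edgeR called 3 higher and 1 lower, and DESeq2 1 higher and 2 lower. Inha was not called by limma (log2 fold change 2.95, adjusted p = 0.146). It was called higher by edgeR (adjusted p = 0.00167) and DESeq2 (adjusted p = 0.00843). By limma Cyp19a1 was lower, with means of 179 in WT and 78.2 in KO (adjusted p = 0.00251). Esr2 was lower too (1013 and 722, limma adjusted p = 0.0446). Nr0b1, near 0 in WT, was the one called higher (0.266 and 7.34, limma adjusted p = 0.0460). These 3 genes are named after their values were seen. The summed level of the 20 granulosa genes was 4192 to 5327 in WT and 4501, 5802 and 5399 in KO 1 to 3. The mean log2 level of these markers was 2.83 to 3.71 in WT and 3.73, 4.86 and 4.59 in KO 1 to 3, so each KO library was above WT, KO 1 by little. Of 15 oocyte marker genes 14 had a row, summing to 193612 to 238615 in WT and 227185 to 343854 in KO. All 14 were tested, with a median log2 fold change of 0.25. Limma called 1 higher and 0 lower (7.14%, against 6.71% of all genes). At an unadjusted p under 0.05 limma had 7 of them, against 21.8% of all genes. edgeR and DESeq2 each called 4 of these oocyte genes higher and 0 lower. The 10 genes and the called genes of the mRNA storage lists are also given in further fits. These leave out both KO 2 and KO 3, or adjust for the granulosa marker mean. They are given where a call ends or a value moves by over 1.5 times. That mean was above WT in each KO library, so the adjustment cannot separate marker level from genotype. Mfn2 itself lost its call after the adjustment (log2 fold change -1.56, limma adjusted p = 0.752). Its value was -1.77 without both KO 2 and KO 3.

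A growing oocyte makes far more mRNA than it translates and keeps much of it in ribonucleoprotein particles until meiosis resumes. CPEB1 binds the cytoplasmic polyadenylation element (CPE), a U-rich motif in the 3′ untranslated region (UTR). Through it CPEB1 keeps some messages silent with short poly(A) tails and later directs their tail lengthening and translation. CPEB2, CPEB3 and CPEB4 are related proteins with a shared type of RNA-binding domain. YBX2 (also called MSY2) coats and stabilises maternal mRNA, ZAR1 and ZAR1L bind mRNA in growing oocytes, and DDX6 and LSM14B belong to the translational repression complex. DAZL, a germ cell RNA-binding protein, promotes translation of some stored messages during maturation. Smart-Seq2 primes on poly(A) tails, and tail length was not measured here.

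Most of these genes hold the letters of the element that CPEB1 reads, as do most genes with a long 3′ UTR. The transcripts searched were those of GENCODE release M21 (build GRCm38). The letters TTTTAT and TTTTAAT, the DNA spelling of CPE motifs, were searched on the transcript strand of the longest annotated 3′ UTR of each gene, and each start was counted once. Of the 10 genes, 8 held at least 1 match, and Zar1 and Zar1l, with annotated 3′ UTRs of 146 and 14 bases, held none. For comparison, 1184 of the 7254 genes tested below with a 3′ UTR of at least 1000 bases held none. Cpeb2 had 24 matches in 3778 bases, or 6.35 per kb, at percentile 99.9 among the 8297 genes with a 3′ UTR of at least 1000 bases. The median over those genes was 1.11 per kb. Cpeb4 had 17 matches (4.14 per kb), Dazl 6 (3.24 per kb), Cpeb1 4 (3.04 per kb), Ddx6 7 (1.65 per kb), Cpeb3 6 (1.68 per kb) and Lsm14b 2 (1.69 per kb). All 7 of the genes with a 3′ UTR of that length had a match in its last 1000 bases, as did 67.1% of all such genes. In the last 100 bases only Ybx2 had one, against 18.6% of all genes with a 3′ UTR of at least 100 bases. The match nearest the transcript end is shown in 30 bases for the genes that the results below turn on, 5′ to 3′, with the CPE letters in capitals. The windows are Cpeb2 chr5:43289554-43289583 (plus strand), Dazl chr17:50279752-50279781 (minus), Ddx6 chr9:44639892-44639921 (plus), Ybx2 chr11:69941532-69941561 (plus) and Cpeb1 chr7:81347257-81347286 (minus), all in the 3′ UTR.
Cpeb2: taatttagtttaTTTTATtgttatcttcca
Dazl: aagtcaaaattcTTTTATgtcaccaagtca
Ddx6: taagccatgttaTTTTAATtggatactttt
Ybx2: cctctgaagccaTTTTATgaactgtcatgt
Cpeb1: cttgacttttctTTTTAATttaacgattac
Of these matches, that of Ybx2 starts 62 bases before the transcript end, that of Cpeb2 159, that of Cpeb1 249, that of Dazl 375 and that of Ddx6 828. A match is a description of the letters and not a measured binding site.

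All 10 genes passed the filter of a normalised count of at least 1 in at least 3 libraries. They were read off a limma fit over the 19227 genes that passed it, on log2(normalised count + 1), with Benjamini-Hochberg adjusted p under 0.05 as the threshold. Cpeb2 and Dazl rose in KO, and the other 8 did not pass. Over all genes tested 3.09% were called higher and 3.63% lower. By limma 0 of the 10 were called lower, with 4 lower at an unadjusted p under 0.05; edgeR called 0 lower and DESeq2 called 1. At an unadjusted p under 0.05 the fit had 8 of the 10 genes, 4 higher (10.6% of all genes) and 4 lower (11.2%). For both directions together the share over all genes was 21.8%, and 26.5% over the 9347 genes with a WT mean of at least 50. The count of the 10 genes called in either direction was read against the share of all genes in the same fit. It was 2 by limma (6.71% of all genes, and 9.29% of those with a WT mean of at least 50), 2 by edgeR (6.53%) and 4 by DESeq2 (7.67%), which added Ddx6 higher and Zar1l lower. It was 3 in limma with a minimum value of 10 (9.17%), 3 without KO 1 (9.36%) and 3 after scaling by library totals (5.77%). It was 0 with the adjustment for granulosa markers (0.0104%). At an unadjusted p under 0.05 that fit had 1 of the 10, and 1172 of all 19227 genes. Without both KO 2 and KO 3 the log2 fold changes of Cpeb2 and Dazl were 1.41 and 0.32. The median log2 fold change was 0.17 over the 10 genes and -0.01 over all genes. In 3 genes each KO library was above each WT library (9.37% of all genes) and in 2 each was below (9.83%).

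**Figure D1:**
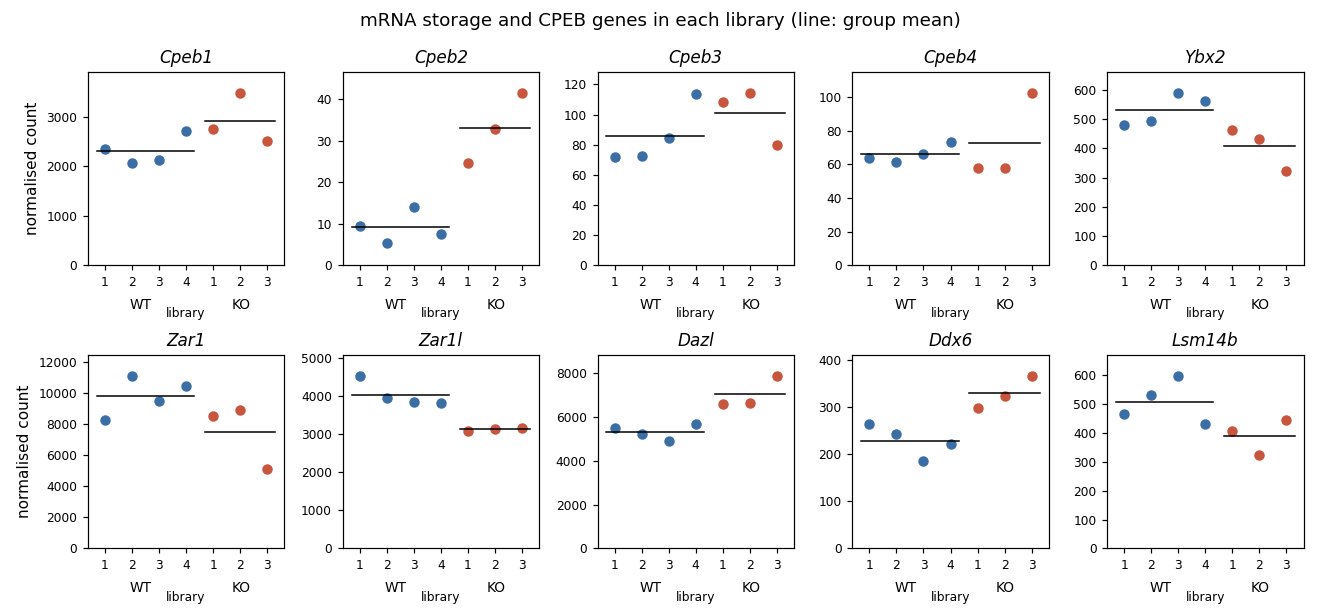
Normalised counts (y axis, from 0, a separate scale per gene) of the 10 genes in each of the 4 WT and 3 KO libraries (x axis), with lines at the group means. Cpeb2, Dazl and Ddx6 have each KO library above each WT library, Zar1l and Ybx2 each KO library below, and the groups of the other 5 overlap.

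Among the CPEB genes, Cpeb2 had the largest difference of the 10 genes. Cpeb2 (ENSMUSG00000039782.14; chromosome 5, 43233170 to 43289724, plus strand) had 9.53, 5.33, 14.0 and 7.58 normalised counts in WT 1 to 4 and 24.5, 32.7 and 41.6 in KO 1 to 3. The lowest KO library was above the highest WT library. The means were 9.12 ± 3.69 (SD, n = 4) and 32.9 ± 8.52 (SD, n = 3), so KO was 3.61-fold higher. On the log2 scale the difference was 1.79 ± 0.39 (SE), with an adjusted p of 0.00888 in limma. These values rest on few reads, 5 to 15 per WT library and 27 to 38 per KO library. The call ended without KO 3 (log2 fold change 1.61, adjusted p = 0.0513) and without both KO 2 and KO 3 (1.41, adjusted p = 0.423). It also ended in a fit that adjusts for the mean granulosa marker level of the libraries (1.02, adjusted p = 0.852). KO 1 had more Cpeb2 than each WT library; its Inha lay inside the WT range, while its Fshr and its marker mean lay above it. The part of granulosa RNA in the Cpeb2 difference was not tested further. In bulk libraries, more or fewer cells of a type and more or less RNA per cell cannot be told apart. The libraries carry no strand, and 137 exon bases of Cpeb2 overlap the antisense gene Gm7854, which itself had at most 0.953 in any library.

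Cpeb1, the member with an established role in oocyte polyadenylation, was the dominant CPEB message. Cpeb1 (ENSMUSG00000025586.17; chromosome 7, 81347026 to 81455465, minus strand) had 2348, 2058, 2126 and 2719 normalised counts in WT and 2755, 3488 and 2507 in KO. KO 3 lay inside the WT range, and the test was not passed (log2 fold change 0.33, 95% interval 0.04 to 0.61; limma adjusted p = 0.159). The value was 0.19 without KO 2 and 0.15 after adjustment for granulosa markers. Cpeb3 (chromosome 19, 37021291 to 37208601) had 71.5, 72.4, 84.1 and 113.7 in WT and 108, 114.5 and 79.9 in KO, with overlapping groups (0.25, 95% interval -0.23 to 0.72; limma adjusted p = 0.577). Its value was 0.15 without KO 2 and 0.40 without KO 3. The intervals of both genes exclude a log2 fold change of 1 in the fit over all libraries. Cpeb4 (chromosome 11, 31872211 to 31935634) had 61.8 to 73.7 in WT, and 58.1, 58.2 and 102.8 in KO, so KO 3 alone was above WT. Its log2 fold change of 0.09 (95% interval -0.42 to 0.59; limma adjusted p = 0.882) turned to -0.19 without KO 3 (adjusted p = 0.729).

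Levels of different genes were compared as normalised counts per kb of annotated exon. On this scale Cpeb1 made up 94.9% to 96.7% of the summed CPEB level in each of the 7 libraries. Cpeb2 was the smallest part, with 0.133% to 0.338% in WT libraries and 0.459% to 0.844% in KO libraries. Cpeb2 thus stayed the lowest CPEB message in KO too. Cpeb4 had 1.71% to 1.96% in WT and 1.06%, 1.33% and 2.56% in KO, and Cpeb3 had 1.66% to 2.27% and 1.71% to 2.13%.

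**Figure D2:**
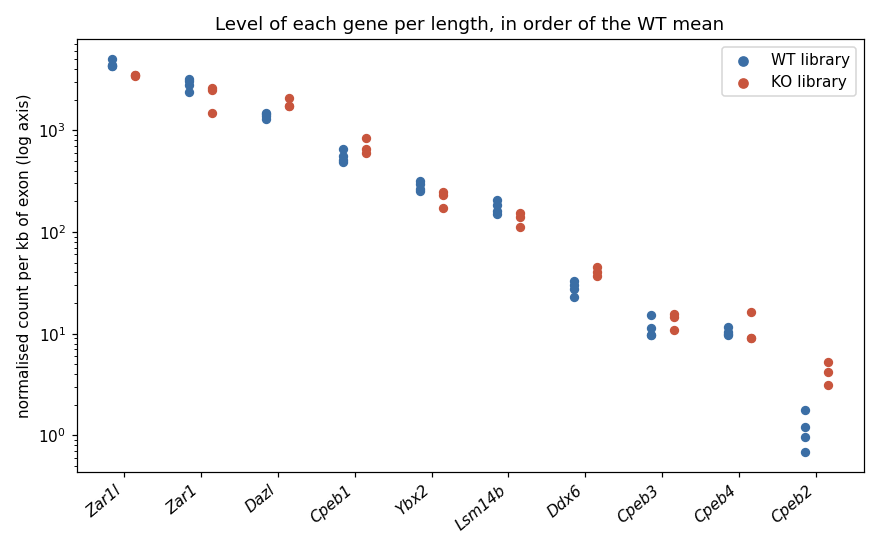
Normalised counts per kb of exon (y axis, log scale) for each gene, ordered by its WT mean, with 1 point per WT (blue) or KO (red) library. The order from Zar1l, with a WT mean of 4502, to Cpeb2, with 1.17, is the same in the KO means.

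Per kb, the 10 genes ranked in WT as Zar1l (4502 ± 376), Zar1 (2844 ± 358), Dazl (1391 ± 87.3), Cpeb1 (552 ± 71.0), Ybx2 (282 ± 28.2), Lsm14b (175 ± 25.8), Ddx6 (28.5 ± 4.14), Cpeb3 (11.5 ± 2.66), Cpeb4 (10.4 ± 0.813) and Cpeb2 (1.17 ± 0.473), as mean ± SD of 4 libraries. Every pair of neighbours in this order was separate over the WT libraries except Cpeb3 and Cpeb4. The KO means had the same order, with overlap between Zar1 and Dazl and between Cpeb3 and Cpeb4. The annotated exons of Zar1l sum to 895 bases and those of Zar1 to 3465, so the order of these 2 genes per kb depends on those models. Before division by length Zar1 was the higher, with a WT mean of 9854 against 4030 for Zar1l.

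The storage genes were lower in KO without passing the test. Zar1 encodes a zinc finger protein that is needed for the oocyte-to-embryo transition. Zar1 (ENSMUSG00000063935.3; chromosome 5, 72576806 to 72581254, minus strand) had 8273, 11138, 9545 and 10461 normalised counts in WT and 8561, 8917 and 5123 in KO. KO 1 and KO 2 lay inside the WT range and KO 3 below it. The log2 fold change of Zar1 was -0.42 (SE 0.17; limma adjusted p = 0.176), and -0.16 without KO 3 (adjusted p = 0.479). It was -0.19 without both KO 2 and KO 3 and -0.096 after adjustment for granulosa markers. Other genes hold 20.7% of its 75-base stretches, among them Gm15847, which had 9.85 to 35.1 normalised counts, so reads may be split between them.

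Zar1l, its close relative, had close values in the 3 KO libraries. Zar1l (ENSMUSG00000056586.8; chromosome 5, 150507055 to 150518164, minus strand) had 4526, 3945, 3835 and 3812 normalised counts in WT and 3074, 3130.1 and 3155 in KO. The 3 KO values lay below all 4 WT values, at a 1.29-fold lower mean. Its log2 fold change was -0.37 (SE 0.12; limma adjusted p = 0.0613), and it kept that direction in each alternative fit. DESeq2 called Zar1l lower (adjusted p = 0.0339), and limma did so when libraries were scaled by their totals (-0.39, adjusted p = 0.0284). With KO 1 alone against WT the value was -0.39 (limma adjusted p = 0.339). Per kb, Zar1l made up 57.8% to 67.9% of the 2 Zar messages in WT and 58.2%, 57.6% and 70.5% in KO, with overlapping groups. These shares rest on annotated exon lengths of 895 bases for Zar1l and 3465 for Zar1. Before division by length Zar1 was the higher, with a WT mean of 9854 against 4030. Which of the 2 has more mRNA is therefore not settled.

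Ybx2, the gene of the mRNA-coating Y-box protein (ENSMUSG00000018554.13; chromosome 11, 69935796 to 69941605, plus strand), had 479.5, 494, 591 and 561 normalised counts in WT. Its KO libraries had 463, 433 and 324. All 3 lay below WT, but KO 1 was only slightly below the lowest WT library. The log2 fold change of Ybx2 was -0.40 (95% interval -0.72 to -0.07; limma adjusted p = 0.134). Without KO 3 it was -0.24 (adjusted p = 0.382), without both KO 2 and KO 3 -0.19, and after adjustment for granulosa markers -0.24.

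Dazl rose in KO. Dazl (ENSMUSG00000010592.9; chromosome 17, 50279395 to 50293636, minus strand) had 5491, 5208, 4896 and 5655 normalised counts in WT and 6607, 6632 and 7869.9 in KO. Each KO library was above each WT library, and KO 3 was the highest. The means were 5313 ± 334 (SD, n = 4) and 7036 ± 722 (SD, n = 3), so KO was 1.32-fold higher. The log2 difference was 0.40 ± 0.12 (SE), with an adjusted p of 0.0393 in limma. With libraries left out 1 at a time the log2 fold change was 0.32 to 0.45. Leaving out WT 1 ended the call (adjusted p = 0.0780), as did leaving out WT 2 (0.112), WT 3 (0.117), WT 4 (0.0555), KO 2 (0.0761) or KO 3 (0.101), and it was kept only without KO 1 (0.0326). It was also lost without both KO 2 and KO 3 (0.32, adjusted p = 0.445) and in the fit that adjusts for granulosa markers (0.34, adjusted p = 0.830).

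The repressor genes lay on opposite sides. Ddx6, which encodes a DEAD-box RNA helicase of repressed mRNA particles (ENSMUSG00000032097.10; chromosome 9, 44604892 to 44640731, plus strand), had 264, 243, 186 and 222 normalised counts in WT and 299, 325 and 366 in KO. The groups did not overlap, with a 1.44-fold higher mean in KO. The log2 fold change was 0.53 (SE 0.17; limma adjusted p = 0.0593). In limma Ddx6 passed the threshold without KO 1 (adjusted p = 0.0495) and with a minimum value of 10 (0.0499). It also passed by DESeq2 (0.0354) and by edgeR without a filter (0.0380). It did not pass by edgeR with the filter (0.0561), or by limma without KO 2 (0.118) or KO 3 (0.150). Without both KO 2 and KO 3 its value was 0.40 (adjusted p = 0.559). Lsm14b, a partner of DDX6 that is needed for oocyte meiosis (ENSMUSG00000039108.14; chromosome 2, 180024987 to 180035465, plus strand), had 464, 533, 598 and 430.0 in WT and 407, 323 and 444 in KO. Its groups overlapped, with KO 3 above WT 4 (-0.37, 95% interval -0.70 to -0.04; limma adjusted p = 0.175). The value was -0.24 without KO 2 and -0.21 after adjustment for granulosa markers.

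**Figure D3:**
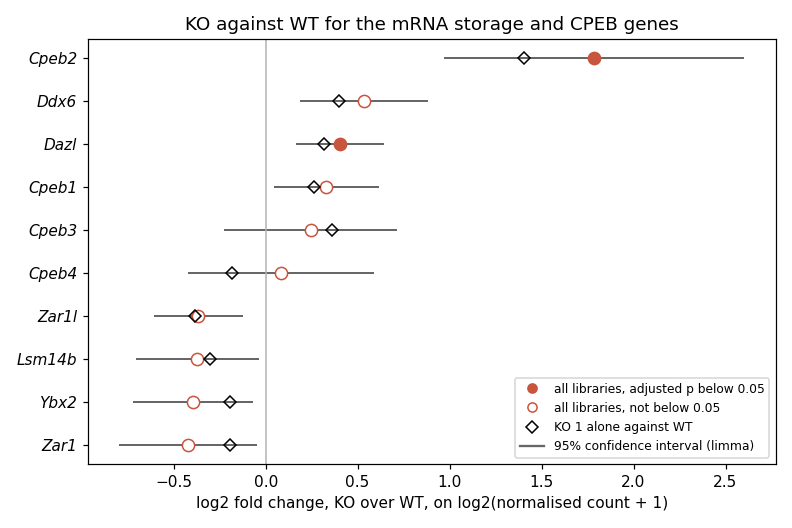
Log2 fold change of KO over WT (x axis) for each gene (y axis), with the 95% interval of the limma fit over all libraries (circles, filled where adjusted p was below 0.05) and the value of KO 1 alone against WT (diamonds). Cpeb2 lies at 1.79 and the others between -0.42 and 0.53, and the sign for KO 1 alone differs only for Cpeb4.

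Genes like Cpeb2 were sought only among tested genes with a mean of at least 50 normalised counts over the libraries. Names with a Gm number, Rik, ps or a dot were left out. Cpeb2 itself had means of 9.12 in WT and 32.9 in KO, so genes at its own level were not searched. In that set the patterns over the 7 libraries most like that of Cpeb2 were those of Cbfb, the gene of a transcription factor subunit, Bclaf3, and the zinc finger gene Zfp975. Likeness was the root mean square difference between their log2 deviations from the gene's own mean, and was 0.28, 0.36 and 0.39 log2 units. Cbfb had 22.4 to 34.6 normalised counts in WT and 84.5, 65.5 and 109.4 in KO. Zfp975 shares 17.1% of its 75-base stretches with other genes.

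The other genes of mRNA storage and its targets were taken from 4 lists with 99 genes, of which 96 were tested. Of these, 4 rose and 2 fell, or 6.25%, against 6.71% of all genes called in either direction. Their median log2 fold change was 0.01. In the list of cytoplasmic polyadenylation and the poly(A) tail, limma, edgeR and DESeq2 each called 0 of 21 genes. At an unadjusted p under 0.05 limma had 4 of the 21, against 21.8% of all genes. Cstf2, a cleavage stimulation factor gene, had the smallest p (162 in WT and 235 in KO; adjusted p = 0.0856), followed by Cnot7, a deadenylase gene (1873 and 1528.0; adjusted p = 0.153). The poly(A) polymerase gene that works with CPEB1, listed as Papd4 and chosen here for its role, had 163 and 138 (adjusted p = 0.468). The deadenylation adaptor Btg4, also chosen for its role, was abundant at 21333 and 20505 (adjusted p = 0.854).

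Among 22 genes of cap-binding repression and P-bodies, 2 rose and 0 fell, or 9.09%, against 6.71% of all genes. Their median log2 fold change was 0.07. Of them edgeR called 0 lower and DESeq2 called 1. Lsm1, a subunit of the ring that binds shortened mRNA tails, had 1799 to 2106 normalised counts in WT and 2462, 2899 and 3076 in KO (log2 fold change 0.54 ± 0.12 SE, adjusted p = 0.0114 by limma). Each KO library was above WT, and the call held in all 7 fits that left out 1 library, but not without both KO 2 and KO 3 (0.36, adjusted p = 0.410) or after adjustment for granulosa markers (0.34, adjusted p = 0.840). Patl2, an oocyte mRNA-binding repressor, had 974 to 1469 in WT and 1703, 3072 and 1759 in KO (0.73, SE 0.20; limma adjusted p = 0.0487). KO 2 stood out in Patl2, and the call was lost in 6 of the 7 leave-one-out fits, all but that without KO 1 (adjusted p up to 0.122, with a value of 0.46 without KO 2). It was also lost without both KO 2 and KO 3 (0.43, adjusted p = 0.430) and after adjustment for granulosa markers (0.30, adjusted p = 0.910). In 7 of these 22 genes each KO library was above each WT library (9.37% of all genes) and in 1 each was below (9.83%). The 4E-T gene Eif4enif1, which joins DDX6 and LSM14B in repression and is named after its values were seen, had 1293 in WT and 1691 in KO (adjusted p = 0.0856). The decapping gene Dcp1a, also named after its values were seen, had 1080.5 and 805 (adjusted p = 0.0562).

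**Figure D4:**
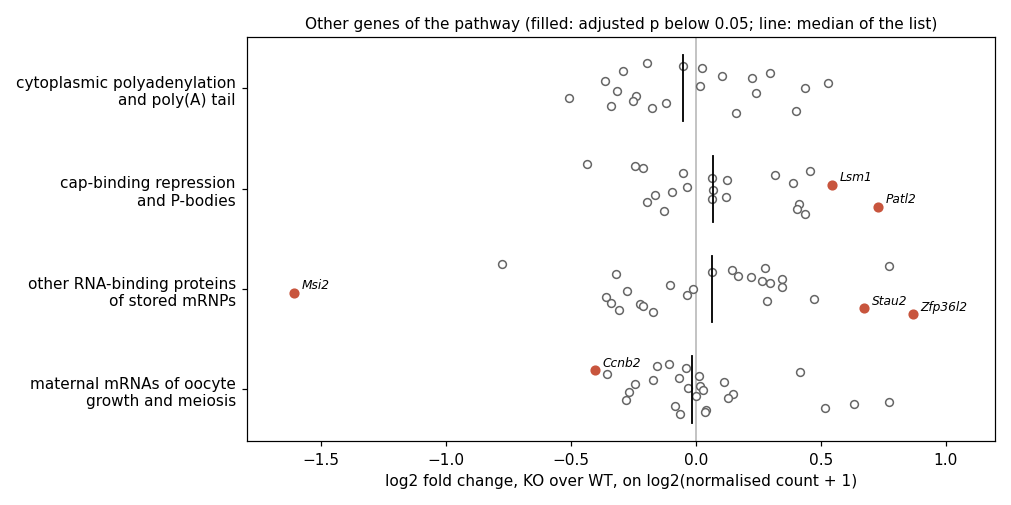
Log2 fold change of KO over WT (x axis) for the tested genes of 4 lists (y axis; height within a list carries no value), filled and named where the limma adjusted p was below 0.05, with a line at each list's median. Lsm1, Patl2, Stau2 and Zfp36l2 lie above 0, Msi2 and Ccnb2 below, and the 4 medians lie between -0.05 and 0.07.

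Of 30 genes for other RNA-binding proteins of stored mRNA 27 were tested (median log2 fold change 0.06). Of these 2 rose and 1 fell, or 11.1%, against 6.71% of all genes. Msi2, the gene of an RNA-binding protein of the Musashi family, had 36.2, 21.3, 29.0 and 24.9 normalised counts in WT and 8.18, 9.09 and 7.66 in KO. Each KO library was far below WT (log2 fold change -1.61 ± 0.36 SE, adjusted p = 0.00935 by limma), and the call held in all 7 fits that left out 1 library. Without both KO 2 and KO 3 the value was -1.63 (adjusted p = 0.158), and after adjustment for granulosa markers -2.01 (adjusted p = 0.477). Stau2, a double-stranded RNA-binding protein gene, had 371 to 479 in WT and 557, 711 and 809.5 in KO (0.67, SE 0.16; adjusted p = 0.0125 by limma). Its call was lost without WT 3 (0.0551) or KO 3 (0.0508). Without both KO 2 and KO 3 the Stau2 value was 0.38 (adjusted p = 0.507), and after adjustment for granulosa markers 0.35 (adjusted p = 0.870). Zfp36l2, whose protein promotes decay of AU-rich mRNAs, had 47.7 to 53.1 in WT and 81.8, 95.5 and 100.6 in KO (0.87, SE 0.22; limma adjusted p = 0.0226). That call was lost in 5 of the 7 leave-one-out fits (adjusted p up to 0.0746), those without WT 1, WT 2, WT 3, KO 2 or KO 3. It was also lost without both KO 2 and KO 3 (0.70, adjusted p = 0.460) and after adjustment for granulosa markers (0.75, adjusted p = 0.824).

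Among 26 maternal mRNAs of oocyte growth and meiosis, many of them messages that are stored and translated later, 0 rose and 1 fell in limma. That is 3.85%, against 6.71% of all genes. At an unadjusted p under 0.05 limma had 7 of the 26, against 21.8% of all genes. By edgeR 0 were called higher and by DESeq2 3. Ccnb2, the gene of cyclin B2, had 1947 to 2137 normalised counts in WT and 1672, 1555.5 and 1462 in KO. All KO libraries were below WT (log2 fold change -0.40, SE 0.12; limma adjusted p = 0.0465), but the call was lost in 6 of the 7 leave-one-out fits, all but that without KO 1 (up to 0.128), and by edgeR (0.0535). Without both KO 2 and KO 3 the value was -0.30 (adjusted p = 0.499), and after adjustment for granulosa markers -0.32 (adjusted p = 0.856). The classical CPE-regulated messages Ccnb1 and Mos, named for that role, had 10167 in WT and 9920 in KO (adjusted p = 0.884) and 9356 and 9530 (0.923).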

How the data were processed

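The authors deposited 1 table of normalised signal, in which the counts of a library share 1 size factor as divisor, for 4 WT and 3 KO libraries. The submitters' processing notes name cutadapt, FastQC, STAR, DESeq, DESeq2 and the builds GRCm38 and mm10. The sources used here do not give the read counter or software versions. Low values were whole multiples of 1 step per library, and dividing by that step gave whole reads (tolerance 0.05) for at least 99.9654% of values in each library.

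The deposited values were tested with limma 3.58.1 in R 4.3.3 (trend and robust estimation) on log2(value + 1), keeping the 19227 genes that reached a value of 1 in 3 or more libraries, and p-values were adjusted over them by Benjamini-Hochberg. The added 1 makes fold changes of low genes too small. edgeR 4.0.16, which called 1255 genes, and DESeq2 1.42.0, which called 1474, were run on the recovered reads. The same limma settings were also run on simulated counts with known fold changes and independent libraries. That run cannot show whether the calls in these data are sound. WT and KO share replicate numbers, and same-numbered libraries were checked for shared deviations.

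The genes and lists were chosen with earlier results of these data known. Named were the 10 genes, Mfn1 and Mfn2, the called genes of each list (at most 5) or else its 2 genes of smallest p, and 4 granulosa genes. Also named were the 3 genes most like the member of smallest p, among genes with a mean value of at least 50. Genes named for their role, or after their values were seen, are marked as such. Gene positions, 3′ UTRs and sequences come from GENCODE M21. Exons of a gene were merged to give its length, and 75-base stretches of transcripts were compared to find shared sequence.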

Additional observations from a re-analysis of the deposited data

Results flagged for a closer look

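Of 27 genes examined for a WT library far from the other 3, 2 had one, where chance gives about 1 in 20 groups. The granulosa gene Amh had 0.953 normalised counts in WT 1 and 0 in the other 3 WT libraries. The granulosa gene Foxl2 had 1.08 in WT 4 and 0 in the others. Both values are about 1 read. With 0 in the other WT libraries a single read sets this flag, so the rate of 1 in 20 does not apply to these genes.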

How the results depend on the processing

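Over 20 alternative settings, the 10 genes kept direction and side of the threshold in 177 values, lost a call in 14, gained one in 6 and reversed in 3. Cpeb4 reversed in all 3, to -0.082 after adjustment for granulosa markers, and to -0.19 both without KO 3 and without both KO 2 and KO 3; with 1 library left out it was -0.19 to 0.22. Of all genes, limma called 1291, against 106 without trend and robust estimation, 2 with the granulosa covariate, 98 without both KO 2 and KO 3, and 594 to 1767 with 1 library left out. With both left out, the lone KO library is assumed to vary like WT. edgeR without a filter called 1911. Of the 10 genes, 2 were called in the main analysis and 4 by DESeq2. In limma 0 of the 10 were called without trend and robust estimation, with 4 at an unadjusted p under 0.05 (3738 of all genes). With the covariate 0 were called, with 1 at that threshold (1172 of all genes). With 1 library left out 0 to 3 were called. The 0 was without KO 3, with 6 at an unadjusted p under 0.05 (3705 of all genes). Of the pathway genes 6 were called in the main analysis, 1 without trend and robust estimation, 10 by DESeq2, and 2 to 8 with 1 library left out. With the covariate limma called 0 of them, with 4 at an unadjusted p under 0.05 (1172 of all genes). The cause of these changes was not tested, beyond the fewer libraries in some. The labels do not say whether same-numbered WT and KO libraries are paired. Deviations of same-numbered libraries correlated at -0.12 to 0.03 over 3 pairs, and 0 of 3 KO libraries were closest to their own number. So few pairs cannot exclude a pairing. With the replicate block 1022 genes were called, among them 1 of the 10 (Dazl lost its call, 0.43, limma adjusted p = 0.116) and 5 pathway genes. WT 4 has no partner and adds nothing to that fit. Depth limits Cpeb2 most, with 5 to 38 reads per library.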

Other observations

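Among the 10 genes, the annotated 3′ UTRs of Dazl, Cpeb2, Cpeb4 and Cpeb3 held 70.0%, 66.6%, 65.7% and 60.6% A and T, and the log2 fold changes of these 4 genes were above 0. Ybx2 and Lsm14b, with 51.0% and 52.8%, were below 0. Zar1l, also below 0, had 50% in an annotated 3′ UTR of only 14 bases. Cpeb1 (58.3%), Zar1 (58.2%) and Ddx6 (57.5%) had nearly the same base content and both signs. Cpeb4 is the exception to a stable sign, as it lay below 0 without KO 3.

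The same features were then counted over all 7254 tested genes with a 3′ UTR of at least 1000 bases, a count added after the data were seen. Of the 1184 genes with no CPE letters, 2.45% were called higher and 2.79% lower in KO, with a median log2 fold change of 0.01. Of the 726 genes of highest CPE density, at more than 2.80 per kb, 8.95% were called higher and 1.79% lower, with a median of 0.16. The median A and T content was 49.9% in the first set and 63.0% in the second, so the CPE letters and base content move together. The sets also differed in level, with a median WT value of 52.5 and 121.0 normalised counts. Among genes at or below the median A and T content of 56.8%, 1.69% of the genes with no CPE and 1.23% of the 81 genes of highest density were called higher. Among genes above it, the shares were 6.63% of 181 genes with no CPE and 9.92% of 645 genes of highest density. At or below the median A and T content the median log2 fold changes were -0.01 with no CPE and -0.02 at highest density. Above it they were 0.18 and 0.17. Above it these sets still differed in median A and T content, at 60.1% and 63.6%. The classes of density between them had 6.53% and 6.48% called higher there, with medians of 0.129 and 0.125. The part of base content or CPE letters in these differences was not tested. Counts called higher ranged from 12 to 38 for genes with no CPE and from 19 to 70 for those of highest density with 1 library left out. Without both KO 2 and KO 3, 0 genes of either set were called higher by limma, and the medians were 0.10 and 0.16. Cpeb2, Dazl, Cpeb1 and Cpeb4 are in the set of highest density. These are values of 1 comparison, genes are not independent replicates, and no test was made.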
